A study of Mus musculus with 4 samples.

Results

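Mural cells, the pericytes of capillaries and the smooth muscle cells of larger vessels, were followed in single-cell RNA libraries of mouse hindlimb at day 7 after injury. They were chosen by their own marker counts, as barcodes with 200 or more genes, at most 20% mitochondrial UMIs (unique molecular identifiers, each marking 1 captured transcript) and 3 or more UMIs summed over Rgs5, Myh11, Notch3, Kcnj8, Abcc9 and Higd1b. Barcodes with 3 or more UMIs of the endothelial genes Pecam1 and Cdh5, or of the leukocyte genes Ptprc and Tyrobp, were left out. The rule took 113 of 1241 filtered cells.

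The mice had a dorsal burn over 30% of the body surface and a cut of the left Achilles tendon, and the right limb of the same mice was the uninjured tissue. There were 4 libraries, each pooled from 2 mice and each the only library of its group. These were injured and uninjured limbs of Ddr2 slie/slie mice, and injured and uninjured limbs of littermate controls. The library names mark the controls as WT, and beyond this the labels do not give their Ddr2 genotype. All 4 groups had the burn, so the uninjured limb is not that of an unburned mouse. The slie allele is a spontaneous deletion in Ddr2, which encodes a collagen receptor, and it is present in every cell of the mouse. The slie injured library gave 20 members of 246 filtered cells (8.13%, exact binomial 95% interval 5.04 to 12.3) and the control injured library 56 of 751 (7.46%, 5.68 to 9.57). The slie uninjured library gave 26 of 184 (14.1%, 9.44 to 20.0) and the control uninjured library 11 of 60 (18.3%, 9.52 to 30.4). These shares are of the cells that survived digestion and filtering, with no replicate library, and intervals throughout cover counting error only.

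Pericytes sit within the basement membrane of capillaries and share it with the endothelium, while smooth muscle cells form a contractile layer around arteries and veins. Endothelial PDGF-B acts on the receptor Pdgfrb to recruit both, and Notch3 signals in both. Kcnj8 and Abcc9 encode the pore and the regulatory subunit of the vascular ATP-sensitive potassium channel, Rgs5 encodes a regulator of G protein signalling, and Higd1b encodes a small mitochondrial protein used as a pericyte marker. Myh11 encodes the heavy chain of smooth muscle myosin. On mm10, Kcnj8 (chromosome 6, 142564837 to 142571614) and Abcc9 (chromosome 6, 142587862 to 142702315) are neighbours on the minus strand with 16248 bases between them, and Myh11 lies on chromosome 16 (14194535 to 14291372, minus strand).

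Members held 109947 UMIs in slie injured, 522179 in control injured, 168692 in slie uninjured and 55302 in control uninjured limbs. A few deep cells carried much of this: the 3 deepest members held 67.5% of member UMIs in slie injured, 30.4% in control injured, 28.7% in slie uninjured and 66.5% in control uninjured limbs. Of the 113 members, 95 had 2 or more of the 6 rule genes and 11 had all 6. The 16 members with exactly 3 rule UMIs, just inside the rule, had 649 CPM (UMIs of a gene per 1000000 UMIs) of Acta2, 219 CPM of Pdgfrb and 11684 CPM of Col1a1 when summed. The 11 barcodes with 2 rule UMIs, just outside, had 95.7 CPM of Acta2, 95.7 CPM of Pdgfrb and 18540 CPM of Col1a1. The 97 members with 4 or more had 10766 CPM of Acta2, 522 CPM of Pdgfrb and 4561 CPM of Col1a1. Scrublet called 4, 2, 2 and 1 doublets in the slie injured, control injured, slie uninjured and control uninjured libraries, and none was a member. The control injured and control uninjured libraries shared 1 barcode, a member in the control injured library.

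Smooth muscle and pericyte markers, whose lists include the rule genes, together had more UMIs than fibroblast markers in 13 of 20 slie injured, 37 of 56 control injured, 19 of 26 slie uninjured and 11 of 11 control uninjured members. In the remaining members, 7 of the slie injured ones among them, fibroblast markers had as many or more. The 20 smooth muscle markers were all detected in every library. They summed to 36299 CPM in slie injured, 12396 in control injured, 30648 in slie uninjured and 92131 in control uninjured members. Among slie injured members, 1 cell of 42975 UMIs held 3460 UMIs of these markers, and no other held more than 206. Smooth muscle markers outnumbered pericyte markers in 6 of 20 slie injured, 21 of 56 control injured, 20 of 26 slie uninjured and 11 of 11 control uninjured members. Of these lists, detection of the rule genes follows from the choice of cells and is no check of the label. Among the members, 10 barcodes had fewer than 0.75 rule UMIs per 1000 UMIs, a limit chosen after the data were seen. A shallow member cannot fall under this limit, since each member had 3 or more rule UMIs. The lowest depth among these barcodes was 4217 UMIs, against medians of 1824.5 in slie injured and 1561 in control uninjured members. No slie injured or control uninjured member fell under the limit, so leaving these barcodes out changes only the other libraries. In the control injured library 6 such barcodes, of which 4 were led by fibroblast genes and 2 by keratinocyte genes, held 28.1% of member UMIs. In the slie uninjured library 4 such barcodes, all led by fibroblast genes, held 27.3%. Fibroblast markers summed to 12361 CPM in slie injured, 17297 in control injured, 20546 in slie uninjured and 1465 in control uninjured members. Without these 10 barcodes they summed to 10742 CPM in control injured and 3474 in slie uninjured members, and keratinocyte markers to 146 CPM in control injured members, against 7469 CPM with them. Many results are therefore given with and without these barcodes, and others with all members only.

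The rule genes themselves are a description, since they chose the cells. Rgs5 had 2947 CPM in slie injured, 2606 in control injured, 1446 in slie uninjured and 398 in control uninjured members. The highest levels of this regulator were thus in the injured limbs. Kcnj8 had 164 CPM in slie injured, 264 in control injured, 356 in slie uninjured and 72.3 in control uninjured members. Myh11 ran the other way between limbs, with 900 CPM in slie injured, 486 in control injured, 1387 in slie uninjured and 4846 in control uninjured members. The intervals of Myh11 in control uninjured members (4283 to 5462) and in the other 3 libraries did not overlap. The channel partner Abcc9 was close between the other 3 libraries and low in the last. Abcc9 had 218 CPM in slie injured, 205 in control injured, 178 in slie uninjured and 18.1 in control uninjured members, the last from 1 UMI. Higd1b was seen in 4 of the slie injured members (20%), 18 of the control injured (32.1%), 6 of the slie uninjured (23.1%) and none of the control uninjured ones, where the 95% Poisson interval reaches 66.7 CPM. Notch3 varied least, at 573 CPM in slie injured, 417 in control injured, 231 in slie uninjured and 289 in control uninjured members. Pdgfrb, outside the rule, had 719, 523, 273 and 127 CPM in slie injured, control injured, slie uninjured and control uninjured members.

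The order of the libraries was the same for Rgs5 and Myh11 with each cell thinned to 500 UMIs. Rgs5 was then detected in 72.2% of slie injured, 66.1% of control injured, 30.8% of slie uninjured and 0% of control uninjured members, with 2 shallower slie injured members left out. Myh11 was detected in 22.2%, 16.1%, 34.6% and 90.9% of these members, in the same order of libraries. In leukocytes, which should lack both genes, Rgs5 was detected in 0%, 0.417% and 0% of slie injured, control injured and slie uninjured cells and Myh11 in none. Since both genes chose the members, these shares are a description.

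**Figure D1:**
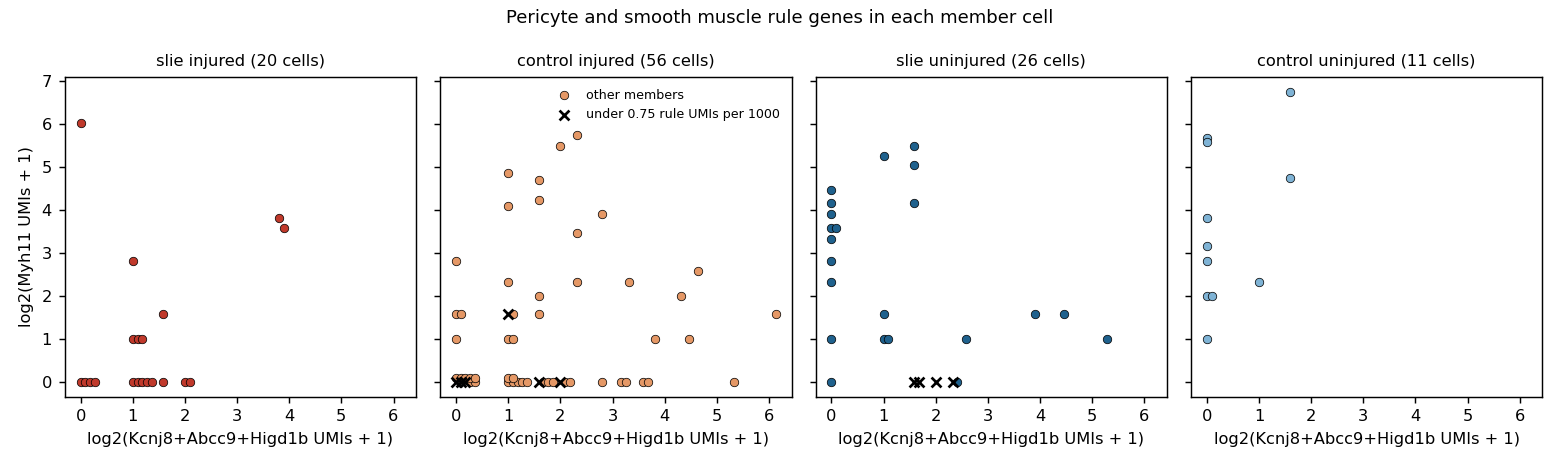
Each point is 1 member cell, with log2 of its summed Kcnj8, Abcc9 and Higd1b UMIs plus 1 on the x axis and log2 of its Myh11 UMIs plus 1 on the y axis, 1 panel per library; points with equal counts are set slightly apart, and crosses are the 10 barcodes with few rule UMIs for their depth. All 11 control uninjured members lie on the Myh11 side, while the other 3 libraries hold cells of both kinds.

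Cells were placed on the pericyte side where Kcnj8, Abcc9 and Higd1b together had more UMIs than Myh11, and on the smooth muscle side where Myh11 had more. The slie injured members fell into 9 pericyte-side, 2 smooth muscle-side and 9 tied cells, and the control injured members into 26, 16 and 14. The slie uninjured members fell into 9, 14 and 3, and all 11 control uninjured members were on the smooth muscle side. No control uninjured member lay on the pericyte side, and the part of this mix in the differences between conditions below was not tested. Without the 10 barcodes the pericyte and smooth muscle sides held 24 and 15 cells in control injured and 5 and 14 in slie uninjured limbs. Only the control injured and slie uninjured libraries held enough cells of both sides to set them against each other, with no test. There, 170 of 2734 genes were 2-fold or more higher on the smooth muscle side in both libraries and 76 on the pericyte side.

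On the smooth muscle side, Sorbs2, which encodes an adaptor of the actin cytoskeleton, had 0 UMIs on the pericyte side and 19 on the smooth muscle side of control injured members, and 1 and 115 UMIs in slie uninjured members. Pln, which encodes phospholamban, the inhibitor of the sarcoplasmic calcium pump, had 0 and 6 UMIs in control injured and 0 and 92 UMIs in slie uninjured members, in the same order. Tagln, the actin-binding transgelin, had 416 CPM on the pericyte side and 5868 on the smooth muscle side of control injured members, and 1057 and 13952 CPM in slie uninjured members. Tagln was thus present on the pericyte side too. On the pericyte side, Cygb, which encodes cytoglobin, had 539 CPM there and 157 on the smooth muscle side of control injured members, and 1057 and 45.0 CPM in slie uninjured members. Cygb kept a log2 difference of 2.08 in control injured and 3.99 in slie uninjured members without the 10 barcodes. Pi16 and Mfap4, both fibroblast genes, stood high on the pericyte side with them, and had 1 and 2 UMIs in control injured and 0 and 0 in slie uninjured pericyte-side members without them.

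Members differed from the other populations by the contractile apparatus, by signalling genes of vessel tone and by pericyte genes that the rule did not use. Counts were summed per library and tested with edgeR's quasi-likelihood test with library as a block and Benjamini-Hochberg adjustment, leaving out the rule and exclusion genes. Genes that go with the rule genes in a cell are not independent of the rule, so that these tests describe the members and do not test their identity. Against the other filtered cells, 207 of 4891 genes were higher (4.23%) and 161 lower (3.29%). Endothelial cells had 3 or more UMIs of Pecam1 and Cdh5 and under 3 of Ptprc and Tyrobp (77 cells). Against them, 143 of 2538 were higher (5.63%) and 152 lower (5.99%). Fibroblasts had 3 or more UMIs of Pdgfra, Dcn and Lum, and under 3 of the endothelial and of the leukocyte genes (224 cells). Against them, in the 3 libraries with 5 or more fibroblasts, 226 of 4870 were higher (4.64%) and 254 lower (5.22%). Both populations were also held to under 3 rule UMIs, so that they were chosen to be low in mural genes. Without the control injured library 165 genes passed against the other cells and 21 against fibroblasts. Without the control uninjured library 553 passed against the other cells, and without the slie uninjured library 879 against fibroblasts.

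Among contractile genes, 16 of 23 tested were higher in members than in the other cells, 16 of 20 than in endothelial cells and 16 of 23 than in fibroblasts, and none was lower. Lmod1, which encodes leiomodin, an actin filament nucleator, had 273 CPM in slie injured, 105 in control injured, 320 in slie uninjured and 796 in control uninjured members, against 3.33, 2.28, 10.8 and 26.7 CPM in the other cells of the same libraries. The log2 difference of Lmod1 was 5.21 (SE 0.33). Myl9, the regulatory light chain of smooth muscle myosin, had 3438, 1335, 3918 and 11989 CPM in members and 218, 133, 204 and 53.3 CPM in the other cells of these libraries (log2 difference 4.49, SE 0.81, adjusted p = 0.039). Acta2, smooth muscle actin, was 7.36 higher on the log2 scale than in endothelial cells (adjusted p = 0.036) but did not pass against the other cells (4.60, adjusted p = 0.084) or fibroblasts (4.24, adjusted p = 0.34).

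Serum response factor, the transcription factor that drives many contractile genes, binds a sequence called the CArG box, searched here on both strands as CC, 6 bases of A or T, and GG, in windows of 250 bases before to 50 after each gene start. RefSeq (GRCm38.p6) gave windows for 23 of the 26 contractile genes, in 27 windows, and the box was in those of 3 genes (Myl9, Myl6 and Vcl). Of the 32851 windows of all genes, 535 held it (1.63%). The Myl9 window, chr2:156775214-156775513 on the plus strand, is shown because Myl9 was high in the members; its box, in capitals, starts 161 bases before the gene start. A match is a run of letters and not a measured binding site.

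Myl9: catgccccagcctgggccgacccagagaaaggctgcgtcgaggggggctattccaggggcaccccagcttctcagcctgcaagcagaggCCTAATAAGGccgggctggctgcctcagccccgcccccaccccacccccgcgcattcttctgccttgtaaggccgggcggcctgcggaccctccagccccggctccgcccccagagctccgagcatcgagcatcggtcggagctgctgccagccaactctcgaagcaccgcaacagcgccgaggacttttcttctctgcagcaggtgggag

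Genes of vessel tone were also higher. Of 9 tested genes for vasoactive receptors, channels and the cyclic GMP pathway, 7 were higher in members than in the other cells, and none was lower. Gucy1a3, a subunit of the nitric oxide receptor guanylate cyclase, had 337, 285, 777 and 741 CPM in slie injured, control injured, slie uninjured and control uninjured members, and 2.22, 5.41, 46.3 and 16.0 CPM in the other cells. Its partner subunit Gucy1b3 was 5.02 higher on the log2 scale (SE 0.42) and Gucy1a3 5.20 (SE 0.43). Kcnk3, an acid-sensitive potassium channel, and P2rx1, an ATP-gated cation channel, were also higher against the other cells (log2 5.53, SE 0.48, and 5.35, SE 0.84). Ednra, the endothelin receptor that raises tone, was higher than in the other cells, endothelial cells and fibroblasts by 3.70, 5.19 and 2.91 on the log2 scale. The highest log2 difference among the genes named against the other cells was 8.07 for Map3k7cl, with 236, 113, 190 and 235 CPM in slie injured, control injured, slie uninjured and control uninjured members, and 0, 0, 2.15 and 0 CPM in the other cells.

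Of 16 tested pericyte genes outside the rule, 12 were higher in members than in the other cells, and of 8 tested against endothelial cells, 6 were higher. Pdgfrb was 3.00 higher on the log2 scale (SE 0.29) than in the other cells. Cox4i2, a subunit of cytochrome c oxidase, was higher against the other cells, endothelial cells and fibroblasts by 4.49, 6.71 and 5.48 on the log2 scale. Mcam, an adhesion molecule of both mural and endothelial cells, was 6.02 higher than in fibroblasts (SE 0.49) but did not pass against endothelial cells (1.33, adjusted p = 0.051). Of 6 tested Notch pathway genes, Jag1, a Notch ligand, and Nrarp, a feedback target, were higher than in the other cells (log2 2.24 and 1.90), and against fibroblasts Heyl, a Notch target, also passed (4.04, adjusted p = 0.0014).

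Some genes of the comparison populations were lower in members. Adgrl4, Icam2, Clec14a and Edn1, genes of the endothelial surface and of endothelin, had 0 CPM in all 4 libraries of members. Members were chosen to have few Pecam1 and Cdh5 UMIs, and 2 of them held any. The absence of other endothelial genes is not independent of that choice and is a description. Fibroblast markers were not absent: against the other cells 1 of 11 tested, Serpinf1, was lower in members, and against fibroblasts 7 of 8. Edn1 had 93.4, 464, 185 and 473 CPM in endothelial cells of slie injured, control injured, slie uninjured and control uninjured limbs. Against fibroblasts, 6 of 7 fibrillar collagen genes and 13 of 28 activation and matricellular genes were lower in members. The fibroblasts were chosen by Pdgfra, Dcn and Lum UMIs, and genes that go with these are not independent of that choice. The lower fibroblast markers, collagens and matrix genes of members are thus a description. Cthrc1, a secreted protein of healing fibroblasts, had 9.10, 23.0 and 0 CPM in slie injured, control injured and slie uninjured members and 1283, 1094 and 49.8 CPM in their fibroblasts. Col1a1 was 1.90 lower on the log2 scale in members than in fibroblasts (SE 0.28).

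**Figure D2:**
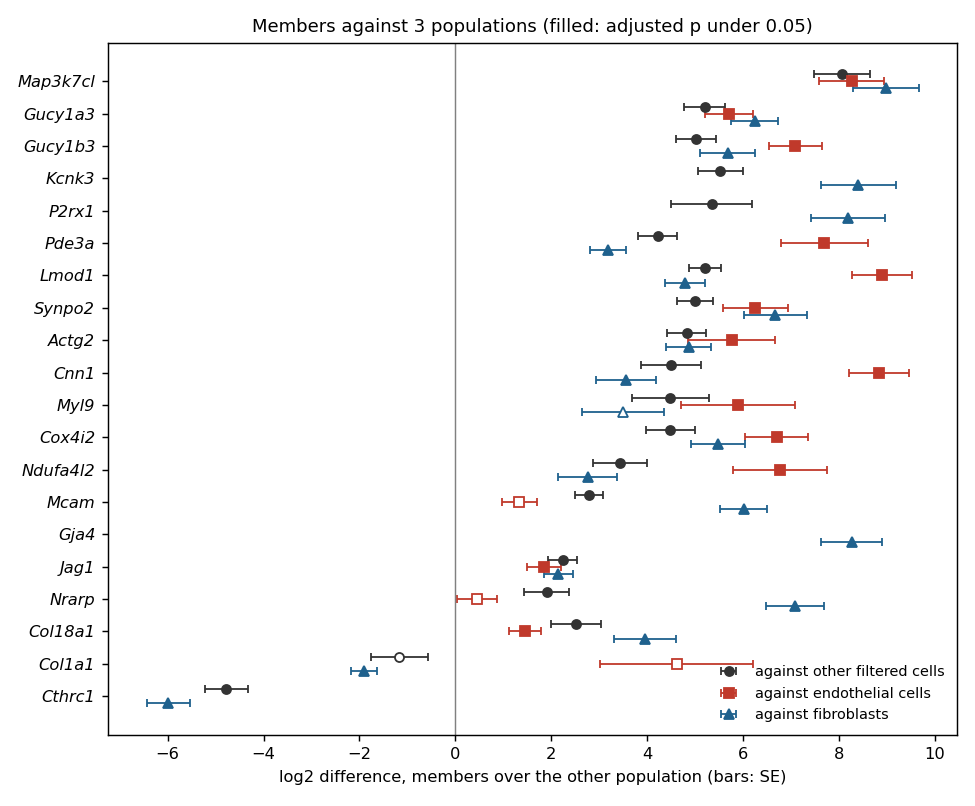
The x axis gives the log2 difference of each gene, members over the other population, with its SE, for the other filtered cells, endothelial cells and fibroblasts; filled points passed an adjusted p of 0.05. Contractile and vessel tone genes such as Lmod1 (5.21 against the other filtered cells) lie far to the right, and Cthrc1 to the left.

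Ddr2 itself was read in members: 0 UMIs in slie injured, 36 in control injured, 2 in slie uninjured and 3 in control uninjured members, on chromosome 1 of mm10 (169972307 to 170110762, minus strand). In the control injured library 21 of 56 members carried a Ddr2 UMI (37.5%), with 15 UMIs in pericyte-side, 17 in smooth muscle-side and 4 in tied cells. Both Ddr2 UMIs of the slie uninjured library came from 1 cell. With Ddr2 detected in 0 of 20 slie injured members, the exact binomial upper limit for cells with a UMI is 16.8%. Depth differed, with medians of 1824.5 UMIs in slie injured and 5182 in control injured members. Thinned to 500 UMIs, 0% of slie injured and 3.57% of control injured members held a Ddr2 UMI. The whole libraries held 0 Ddr2 UMIs in slie injured, 116 in control injured, 2 in slie uninjured and 5 in control uninjured limbs. The 3 UMIs in control uninjured members give 54.2 CPM, with a Poisson interval from 11.2 to 159. The labels do not say which part of Ddr2 is deleted, so that these reads check the genotype only as far as the reads fall in it.

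Between conditions there was 1 library per group and so no test within a genotype or limb. Ratios are of CPM with 1 count added to each sum, for genes with 30 or more UMIs over both libraries, and their 95% intervals cover counting error only. A gene can reach 30 UMIs through 1 library alone, and with 0 UMIs in the other it then counts as higher by the filter. In summed counts, fewer cells of a type and less RNA per cell cannot be told apart. The members of control injured limbs had lower contractile genes and higher matrix and cell cycle genes than those of control uninjured limbs. Among all genes, 674 of 3082 were 2-fold or more higher (21.9%) and 439 lower (14.2%). Of 23 contractile genes measured, 19 were 2-fold or more lower and none higher, with a median log2 ratio of -2.15 beside 0.08 over all genes, -1.97 without the 10 barcodes and -1.16 on the smooth muscle side alone, where 13 of 23 were lower.

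Tagln had 2206 CPM in control injured and 26853 CPM in control uninjured members, a ratio of 0.0822 (0.0760 to 0.0888). Acta2 had 5506 CPM in control injured and 29077 CPM in control uninjured members, and Cnn1, the actin-binding calponin, 95.8 CPM and 1157 CPM. Pln had 11.5 CPM in control injured and 452 CPM in control uninjured members, from 6 and 25 UMIs. Sorbs2 had 36.4 CPM in control injured and 1555 CPM in control uninjured members (ratio 0.0243, 0.0142 to 0.0399). The intervals of these ratios all lay below 1, and that of Des, the intermediate filament desmin, held 1, at 228 CPM in control injured and 235 CPM in control uninjured members (ratio 0.908, 0.520 to 1.71).

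Matrix genes stood higher in control injured members. Of 12 basement membrane genes measured, 9 were 2-fold or more higher and none lower (median log2 2.09, 2.39 without the 10 barcodes and 1.95 on the smooth muscle side). Col4a1, a chain of the main basement membrane collagen, had 2880 CPM in control injured and 615 CPM in control uninjured members (ratio 4.55, 3.26 to 6.56). Col18a1, the source of endostatin, had 1072 CPM in control injured and 181 CPM in control uninjured members (ratio 5.40, 3.00 to 10.9). All 7 fibrillar collagen genes were higher (median log2 4.04, 4.08 without the 10 barcodes). Postn, periostin, had 1882 CPM in control injured and 36.2 CPM in control uninjured members, from 983 and 2 UMIs. Fibroblast markers moved with these genes, at 17297 CPM in control injured and 1465 CPM in control uninjured members, and at 10742 and 1465 CPM without the 10 barcodes; their part in the result was not tested. Ednrb, the second endothelin receptor, had 527 CPM from 275 UMIs in control injured and 0 CPM in control uninjured members, at least 9.71-fold higher against 3 counts.

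The other lists gave the following in control members. Of 14 cell cycle genes 12 were higher in the injured limb (median log2 2.93), of 23 activation and matricellular genes 17 higher and 1 lower (2.13), and of 13 chemokine, cytokine and adhesion genes 9 higher and 1 lower (1.85). On the smooth muscle side alone, where all control uninjured members lie, the chemokine list gave 0 higher and 0 lower of 3 (0.56), the activation list 11 higher of 16 (1.98) and the cell cycle list 8 higher of 10 (3.88). Fn1, fibronectin, had 563 CPM in control injured and 90.4 CPM in control uninjured members (ratio 5.21, 2.36 to 14.3). Ccl2, a monocyte chemokine, had 98 UMIs in control injured and 0 in control uninjured members, at least 3.46-fold higher. Of these Ccl2 UMIs, 96 were on the pericyte side, which held no control uninjured member, and 0 on the smooth muscle side. Of 12 pericyte genes outside the rule 5 were higher and 2 lower (0.75), with Pdgfrb at a ratio of 3.63 (1.82 to 8.49). Of 19 glycolysis and hypoxia genes 8 were higher (0.54), and this list stood at 2 of 11 (0.06) without the 10 barcodes. Vessel tone genes gave 2 higher and 3 lower of 9 (-0.10), with Gucy1a3 at 285 CPM in control injured and 741 CPM in control uninjured members (ratio 0.378, 0.267 to 0.546). The nuclear genes of oxidative phosphorylation gave 0 higher and 4 lower of 25 (-0.60). The lists of the Notch pathway (7 measured, -0.33), PDGF and angiopoietin signalling (4, 0.84), RGS family (3, -1.53), TGF-beta and BMP pathway (7, 0.70), chondrogenic and osteogenic genes (5, 2.19), collagen receptors and integrins (6, 0.94), immediate early genes (12, -0.28) and interferon response (6, 1.20) gave the medians in brackets, each beside its number of measured genes. The Notch median was 0.51 without the 10 barcodes and 0.93 on the smooth muscle side, and the vessel tone median 0.38 without the barcodes. Without them the PDGF median was 2.18, interferon response 0.64, chondrogenic and osteogenic genes 1.15 and immediate early genes -1.08. The RGS family then gave -1.05, the TGF-beta and BMP pathway 1.08 and collagen receptors and integrins 1.32. The chondrogenic list turned to -1.21 without members with 3 or more fibroblast UMIs.

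The genes Col4a1 and Col4a2 start 21 bases apart on opposite strands, and their windows share 78 bases, shown in capitals in the Col4a1 window (GRCm38.p6, chr8:11312777-11313076, minus strand, RefSeq). The genes overlap at their starts, since Col4a2 starts at 11312805 on the plus strand and Col4a1 at 11312826 on the minus strand. The shared stretch begins 28 bases before the Col4a1 start and runs past it to the end of the window. The window is shown because both genes were high in injured limbs. Windows that overlap one on the other strand are 10.8% of all. Col4a2 had 1419 CPM in slie injured, 1277 in control injured, 320 in slie uninjured and 416 in control uninjured members, the same order of limbs as Col4a1, which had 3593, 2880, 539 and 615 CPM.

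Col4a1: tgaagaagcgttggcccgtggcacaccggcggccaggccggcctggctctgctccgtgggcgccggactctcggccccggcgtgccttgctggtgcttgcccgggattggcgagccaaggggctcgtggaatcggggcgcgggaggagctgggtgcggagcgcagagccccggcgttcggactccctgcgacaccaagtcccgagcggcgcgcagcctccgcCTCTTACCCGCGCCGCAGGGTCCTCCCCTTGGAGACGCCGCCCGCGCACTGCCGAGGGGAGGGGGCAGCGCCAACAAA

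**Figure D3:**
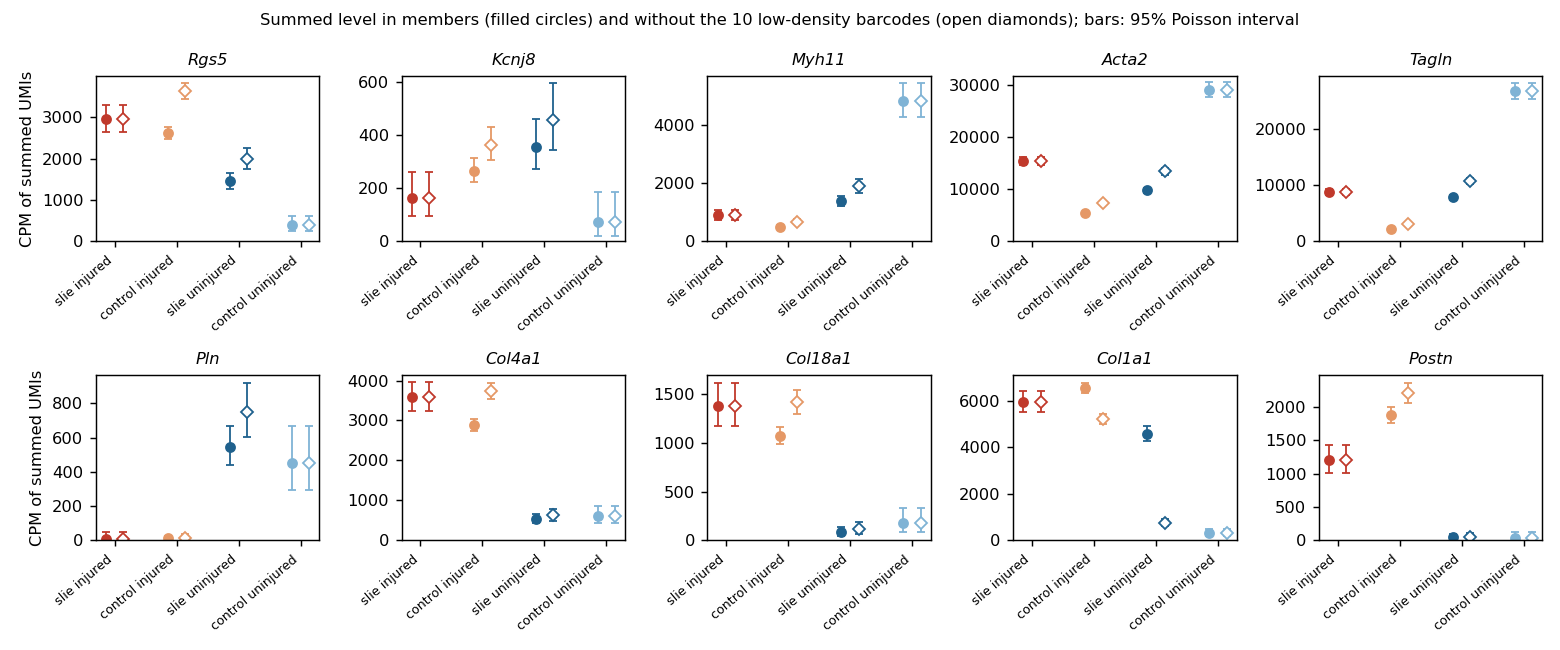
Each panel gives the CPM of 1 gene in the 4 libraries, with 95% Poisson intervals, for all members (filled circles) and without the 10 barcodes (open diamonds). Col4a1, Col18a1 and Postn lie high in both injured libraries, Pln in both uninjured ones, and Col1a1 of slie uninjured members lies at 4600 CPM with the 10 barcodes and at 766 CPM without them.

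Slie injured members had higher matrix and cell cycle genes than slie uninjured members, while the direction of the contractile genes depended on the deepest cells. Among all genes, 176 of 1547 were 2-fold or more higher in slie injured than in slie uninjured members (11.4%) and 181 lower (11.7%). Of 22 contractile genes measured, 3 were higher and 1 lower (median log2 0.10, -0.31 without the 10 barcodes and -1.28 without the 3 deepest members of each library). Acta2 and Tagln had log2 ratios of -1.72 and -2.64 in that last setting. Of 10 basement membrane genes, 4 were higher and 1 lower (median log2 0.64, 1.81 without the 10 barcodes), and of 6 fibrillar collagens 3 were higher (median log2 0.85, 2.88 without them). Fibroblast markers summed to 12361 CPM in slie injured and 20546 CPM in slie uninjured members, and to 12361 and 3474 CPM without the 10 barcodes. Their part in the matrix result was not tested. Col18a1 had 1382 CPM in slie injured and 83.0 CPM in slie uninjured members (ratio 15.6, 9.20 to 28.6). Postn had 1210 CPM in slie injured and 47.4 CPM in slie uninjured members (ratio 22.8, 11.7 to 51.0). Pln had 9.10 CPM in slie injured and 545 CPM in slie uninjured members, and Sorbs2 118 CPM and 694 CPM, so that both were lower in the injured limb in this genotype too.

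In slie members, 11 of 15 activation genes were higher and 2 lower in the injured limb, against 10 of 13 higher and 1 lower without the 10 barcodes (median log2 1.44) and 3 higher and 3 lower of 9 on the pericyte side (0.31), and 6 of 7 cell cycle genes higher (3.28). Fn1 had 682 CPM in slie injured and 154 CPM in slie uninjured members (ratio 4.32, 2.75 to 6.97). Pdgfrb had 719 CPM in slie injured and 273 CPM in slie uninjured members (ratio 2.61, 1.80 to 3.83). Gucy1a3 was lower here too, at 337 CPM in slie injured and 777 CPM in slie uninjured members (ratio 0.442, 0.299 to 0.638), but had a log2 ratio of 0.54 on the pericyte side alone. Sparc, a collagen-binding matricellular protein, had 5539 CPM in slie injured and 5572 CPM in slie uninjured members, and 5539 and 3278 CPM without the 10 barcodes (ratio 1.69, 1.49 to 1.92). In control members it had 5523 CPM in control injured and 1591 CPM in control uninjured members. Of 3 Notch pathway genes 2 were lower (-1.52), with Hes1, a Notch target, at 81.9 CPM in slie injured and 255 CPM in slie uninjured members. Of 7 chemokine genes 1 was higher and 3 lower (-0.74).

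The pairs of both genotypes come from separate mice, and 1495 genes could be measured in both. In them, 74 genes were 2-fold or more higher in both injured limbs, 73 lower in both and 36 opposite. Taken alone, the control pair had 492 of these 1495 genes 2-fold or more apart and the slie pair 320. Without the 10 barcodes the counts were 97, 63 and 11 of 1240 genes, with 377 apart in the control pair and 285 in the slie pair. Fitted over both genotypes with the mouse pool as a block, an added test, 0 of 2521 genes passed in either direction (0% higher and 0% lower by edgeR's quasi-likelihood test), while 381 had an unadjusted p under 0.05 and DESeq2 called 19. Its smallest adjusted p was 0.129. Without the block by mouse pool 109 genes passed, and without the 10 barcodes 168. The fits with 1 library left out have no block, and 308, 110, 81 and 206 passed with the slie injured, control injured, slie uninjured or control uninjured library left out, where a lone library is assumed to vary like the others. Col4a1 gave a log2 difference of 2.46 (SE 0.44, adjusted p = 0.16) and Col18a1 3.31 (SE 0.50, adjusted p = 0.13) in the blocked fit over all 4 libraries.

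**Figure D4:**
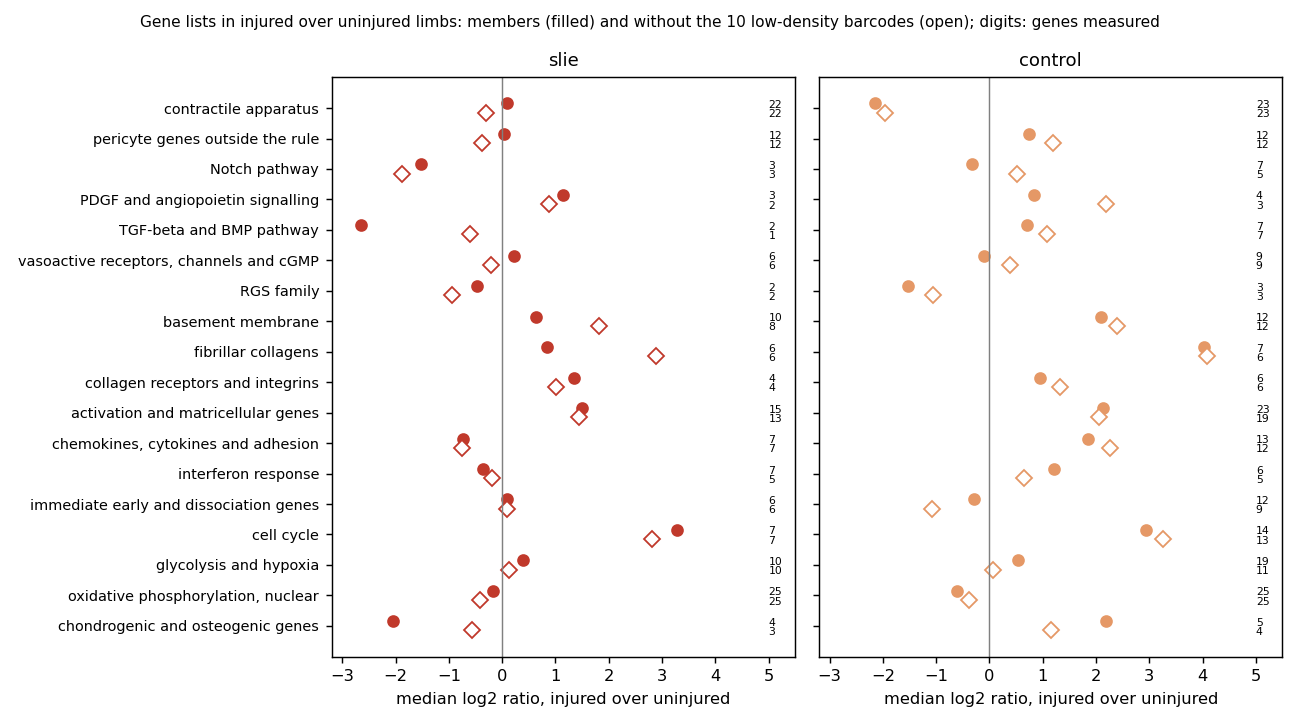
The x axis gives the median log2 ratio of injured over uninjured limbs for each of the 18 gene lists, in slie (left) and control (right) members, with all members filled and without the 10 barcodes open; digits are the genes measured. The contractile list lies at 0.10 in slie and -2.15 in control members, and cell cycle genes lie high in both.

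Cycling cells were seen in both injured libraries. Mki67, a marker of dividing cells, had 400 CPM in slie injured, 205 in control injured and 0 in both uninjured groups of members. Counting members with 3 or more UMIs of 10 cell cycle genes gave 5 of 20 in slie injured (25%, 8.66 to 49.1) and 21 of 56 in control injured limbs (37.5%, 24.9 to 51.5). None of 26 slie uninjured and none of 11 control uninjured members reached this, with exact binomial upper limits of 13.2% and 28.5%. With each cell thinned to 500 UMIs, 27.8% of slie injured and 28.6% of control injured members still held a UMI of these genes. Among fibroblasts, the same thinning gave 14.3% in slie injured and 17.0% in control injured limbs.

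In injured limbs, slie members had higher summed contractile genes than control members, and this rested largely on 1 deep cell. Among all genes, 246 of 3358 were 2-fold or more higher in slie injured than in control injured members (7.33%) and 295 lower (8.78%). Of 22 contractile genes measured, 11 were higher and none lower (median log2 1.03, 0.64 without the 10 barcodes). Acta2 had 15371 CPM in slie injured and 5506 CPM in control injured members (ratio 2.79, 2.63 to 2.97), and Tagln 8822 CPM and 2206 CPM. Without the 3 deepest members of each library the median of the list was -0.43, and the log2 ratios of Acta2 and Tagln were -1.54 and -1.43. With cells thinned to 500 UMIs that of Acta2 was -0.46. In slie injured members 1 smooth muscle-side cell of 42975 UMIs held 64 of the 99 Myh11 UMIs. The same cell held 3460 UMIs of the smooth muscle markers. The next deepest cells, of 19070 and 12194 UMIs, held 49 and 206. Of 13 basement membrane genes 0 were 2-fold or more higher and 1 lower (median log2 0.0060), and of 7 fibrillar collagens 0 higher and 1 lower (-0.49, 0.15 without the 10 barcodes). Col4a1 had a ratio of 1.25 (1.12 to 1.40) and Col1a1 one of 0.910 (0.836 to 0.990). Id3, a target of BMP signalling, had 464 CPM in slie injured and 969 CPM in control injured members (ratio 0.487, 0.359 to 0.649), and Junb, an immediate early gene, 45.5 CPM and 333 CPM. Of 15 immediate early and dissociation genes 3 were higher and 9 lower (median log2 -1.05, -0.50 without the 10 barcodes). Genes of this list respond to tissue digestion, and its part in the result was not tested.

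**Figure D5:**
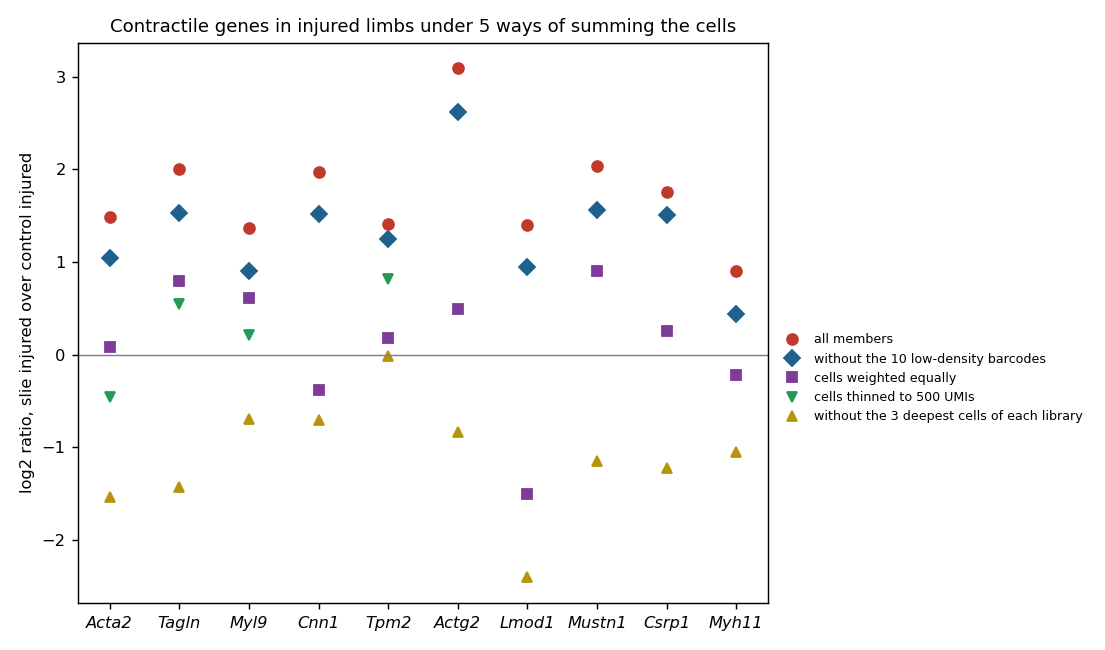
The y axis gives the log2 ratio of slie injured over control injured members for 10 contractile genes (x axis), summed in 5 ways: all members, without the 10 barcodes, with cells weighted equally, with cells thinned to 500 UMIs, and without the 3 deepest cells of each library. Acta2 and Tagln lie above 0 with all members and at -1.54 and -1.43 without the 3 deepest cells.

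In uninjured limbs, slie members had lower contractile genes than control members. Among all genes, 141 of 1189 were 2-fold or more higher in slie uninjured than in control uninjured members (11.9%) and 84 lower (7.06%). Of 21 contractile genes measured, 16 were lower and none higher (median log2 -1.32, -0.90 without the 10 barcodes and -0.59 on the smooth muscle side, where 2 of 21 were lower and 1 higher). Acta2 had 9817 CPM in slie uninjured and 29077 CPM in control uninjured members. Tagln had 7855 CPM in slie uninjured and 26853 CPM in control uninjured members. Rgs5 ran the other way, at 1446 CPM in slie uninjured and 398 CPM in control uninjured members. Col1a1 had 4600 CPM in slie uninjured and 307 CPM in control uninjured members, and 766 CPM in slie uninjured members without the 10 barcodes. Over both limbs, with limb as a block, 0 of 2521 genes passed between slie and control members (0% higher and 0% lower by edgeR's quasi-likelihood test), with 29 at an unadjusted p under 0.05 and 0 by DESeq2, and the smallest adjusted p was 0.577. With the slie injured, control injured, slie uninjured or control uninjured library left out, and no block, 7, 27, 2 and 82 genes passed.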

How the data were processed

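Hindlimb cells were counted in 4 single-cell libraries, 1 per group. Per the labels' protocols, the tissue was digested for 20 minutes and passed through a 40 micron strainer. The deposited values are raw UMI counts per gene and barcode over 27998 genes, with Cell Ranger named at 5.0.1 in the file headers and mm10 named in the submitters' processing notes. The assay was a 3 prime one, per the labels' protocols, while for the counting annotation the sources used here name none. The members, gene lists and comparisons were chosen with earlier results of these data known.

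Filtering asked for 200 genes and no more than 20% mitochondrial UMIs, and the rule was applied to the deposited counts. The genes named follow a rule: the rule genes, Pdgfrb and Ddr2, up to 8 genes of each of 18 lists with the most member UMIs, the 12 highest and 12 lowest per comparison of conditions by the interval bound nearest 1, up to 20 higher and 10 lower per test with 50 or more UMIs and 1 direction in every library, and up to 10 per side; the text gives a selection of them with a few others chosen with their values known, and all of those chosen by comparison, list or rule entered the sensitivity runs. Populations were tested on counts summed per library with edgeR 4.0.16 (TMM, filter on low counts, library block, adjusted p under 0.05), in R 4.3.3, with DESeq2 1.42.0 as an alternative. The SE of an edgeR log2 difference was derived from the test, as its absolute value divided by the square root of the F statistic. Intervals, all at 95%, were Clopper-Pearson for shares, exact Poisson for CPM within members and conditional binomial for ratios of CPM. UMIs cannot remove RNA from other cells, and depth differed between members by library. The tests were also run on simulated data, and the outcome is not given here. Python 3.11.15 with scipy 1.17.1 and scanpy 1.11.5 was used, and sequences came from RefSeq.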

Additional observations from a re-analysis of the deposited data

Results flagged for a closer look

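Injury ratios of 5 of the genes named by rule went opposite ways in the 2 genotypes, with all members and without the 10 low-density barcodes. The difference between the genotypes was not tested in any of them, since each rests on 1 library per group. Cnn1, calponin, had a log2 ratio of 1.55 in slie and -3.59 in control members, injured over uninjured. Fabp4, a fatty acid binding protein of endothelium and fat, had a log2 ratio of -0.69 in slie and 3.13 in control members, injured over uninjured. Kcnj8, the potassium channel pore, had a log2 ratio of -1.07 in slie and 1.56 in control members, injured over uninjured. Map1b, a microtubule-associated protein, had a log2 ratio of 1.27 in slie and -2.98 in control members, injured over uninjured. Steap4, a metal reductase found in pericytes, had a log2 ratio of -1.57 in slie and 2.54 in control members, injured over uninjured. Kcnj8 is 1 of the genes that chose the members, so its values are a description. Steap4 had 0 UMIs in control uninjured members, so that its control ratio depends on the added count and is no bound; against 3 counts it was at least 1.91-fold higher. Kcnj8 had 4 UMIs there, and all 11 of those cells lay on the smooth muscle side. With cells weighted equally, the slie ratio of Cnn1 was -0.44.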

How the results depend on the processing

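Library counts of members moved by over 1.5 times once: 13 slie injured members had 500 or more genes. Without barcodes under 0.5% mitochondrial UMIs, members were 16.0% of slie injured and 11.8% of control injured cells. Genes called against the other cells numbered 1447 with no filter and 217 with no library block, and 165 to 553 with 1 library left out. Against endothelial cells they numbered 1241 with no filter. Against fibroblasts they numbered 1037 with no filter and 145 with no block, and 21 (without control injured) to 879 (without slie uninjured) with 1 library left out. Between injured and uninjured limbs the counts were 19 with DESeq2, 161 with no filter, 109 with no block, 38 with 5 or more rule UMIs, 232 without members with fibroblast UMIs, 168 without the 10 barcodes and 81 to 308 with 1 library left out; between genotypes they were 44 with no filter, 2 without members with fibroblast UMIs, 1 without the 10 barcodes and 2 to 82 with 1 library left out. Genes 2-fold apart in slie over control injured members numbered 856 at 20 UMIs, 1191 with cells weighted equally, 13 thinned, 357 with 2 rule genes, 306 without the 10 barcodes and 298 on the pericyte side. In uninjured limbs they numbered 418, 352 and 14 in the first 3 of these settings, 87 with 5 rule UMIs, 89 without fibroblast UMIs, 94 without the 10 barcodes and 63 on the smooth muscle side. In control injury they numbered 71 thinned and 406 on the smooth muscle side, and in slie injury 597, 641, 32, 236 without fibroblast UMIs and 208 on the pericyte side. Ratios and medians under 2-fold also turned sign, 498 gene values and 110 list medians over all alternatives, and those are not listed. Those of 2-fold or more that turned sign, over all genes chosen by rule, were as follows, and the cause was not tested. With cells weighted equally, log2 ratios of slie injured over control injured were Acan 2.01, Cnn1 -0.39, H2-D1 0.028, Id1 1.06, Il33 0.44, Klf6 -0.77, Ldha 0.016, Lmod1 -1.51, P2rx1 -0.20, Rassf3 -0.12, Rgs16 1.36, Sorbs2 -0.052, Spp1 0.031, chondrogenic and osteogenic genes 0.73. Thinned to 500 UMIs, log2 ratios of slie injured over control injured were Acta2 -0.46, chondrogenic and osteogenic genes 0.66. Without the 3 deepest members, log2 ratios of slie injured over control injured were Acta2 -1.54, Actg2 -0.84, Apoe -2.24, Cnn1 -0.71, Cryab -0.044, Csrp1 -1.23, Id1 0.42, Lmod1 -2.41, Mustn1 -1.15, Myl9 -0.69, P2rx1 -1.70, Tagln -1.43, Tpm2 -0.012, contractile apparatus -0.43. On the pericyte side, log2 ratios of slie injured over control injured were Acta2 -0.62, Csrp1 -1.93, Gsn 0.35, Serpinf1 0.52. With 5 or more rule UMIs, log2 ratios of slie injured over control injured were Gsn 0.43, Ly6a 0.48, Serpinf1 0.40, chondrogenic and osteogenic genes 0.18. Without members with fibroblast UMIs, log2 ratios of slie injured over control injured were Gsn 0.70, Hist1h2ap -0.30, chondrogenic and osteogenic genes 1.15. Without the 10 barcodes, log2 ratios of slie injured over control injured were Gsn 0.29, H2-D1 0.37, Serpinf1 0.094, chondrogenic and osteogenic genes 0.077. Without the 3 deepest members, log2 ratios of slie uninjured over control uninjured were Pdgfa 0.11. On the smooth muscle side, log2 ratios of slie uninjured over control uninjured were Col3a1 -0.082. With 5 or more rule UMIs, log2 ratios of slie uninjured over control uninjured were Col3a1 -0.23. Without members with fibroblast UMIs, log2 ratios of slie uninjured over control uninjured were Col3a1 -0.080. With cells weighted equally, log2 ratios of control injured over control uninjured were C7 -1.88, Clec3b -1.26, Gsn -0.94, Klf6 0.078, Ly6a -0.058. Without the 3 deepest members, log2 ratios of control injured over control uninjured were C7 -0.0079, Klf6 0.92, Pkm -0.053. With 5 or more rule UMIs, log2 ratios of control injured over control uninjured were Gsn -0.81, H2-D1 -0.052, Ier3 -0.061. Without members with fibroblast UMIs, log2 ratios of control injured over control uninjured were Gsn -0.25, chondrogenic and osteogenic genes -1.21. Without the 10 barcodes, log2 ratios of control injured over control uninjured were Gsn -0.79, H2-D1 -0.18. Without barcodes of low mitochondrial share, log2 ratios of control injured over control uninjured were Ier3 -0.077. At 20 UMIs, log2 ratios of control injured over control uninjured were chondrogenic and osteogenic genes -1.47. With cells weighted equally, log2 ratios of slie injured over slie uninjured were Cnn1 -0.44, Hspb6 -2.16, P2rx1 -1.03, Pkm -0.36, Rassf3 -1.53. Without the 3 deepest members, log2 ratios of slie injured over slie uninjured were Pkm -0.090. On the pericyte side, log2 ratios of slie injured over slie uninjured were Gapdh -0.38, Gucy1a3 0.54. 

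The injured and uninjured libraries of a genotype come from the same mice, and the paired fit over both genotypes, with mouse pool as the block, called 0 genes, against 109 with no block. Within a genotype there is 1 pair and no test. Depth limits the slie injured and control uninjured members, whose 3 deepest cells hold most of their UMIs.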

Other observations

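In both injury pairs, 61 genes were 2-fold or more higher in the injured limb and 41 lower in every one of 4 ratios. These were the ratios of each pair with and without the 10 low-density barcodes. Slie injured and control uninjured members lost no barcode, so these ratios are not independent. Genes of any kind measured in both pairs numbered 1495 with all members and 1240 without the barcodes. The 61 and 41 leave out mitochondrial, ribosomal protein, hemoglobin, Gm, Rik and other clone-named genes, Xist and Y-linked genes. Cxcl12, a chemokine of resident stromal cells, was lower in both injured limbs, at 227 CPM in slie injured and 830 CPM in slie uninjured members, and at 161 CPM in control injured and 452 CPM in control uninjured members. Without the 10 barcodes it had 685 CPM in slie uninjured and 63.9 CPM in control injured members. Ednrb had 155 CPM in slie injured, 527 in control injured, 53.4 in slie uninjured and 0 in control uninjured members.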
